A study of Emberiza melanocephala with 4 samples.

Results

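In RNA labelled as testis of the black-headed bunting (Emberiza melanocephala), a migratory songbird that breeds seasonally, 246 stretches of the genome carried abundant transcripts in the library of the Sensitive state and no listed transcript in the libraries of the other 3 states. These loci were chosen on their levels: transcripts of all 4 libraries were merged where their exons overlapped on the same strand (a transcript without a strand joined any), the FPKM of a locus' transcripts were summed per library, and a locus was taken at 60 FPKM or more in Sensitive with nothing listed in Early Stimulated, Late Stimulated and Refractory. FPKM counts fragments relative to transcript length and to the depth of the library. The rule took 246 of 21189 merged loci (1.16%), of 9204 listed in Sensitive at any level, and of 3595 at 60 FPKM or more in Sensitive (6.84%). Since the rule used these levels, the presence in Sensitive and the absence elsewhere are given as a description. There is 1 library per state, from wild-caught birds, whose number, age and time of capture the labels do not state. No treatment is named. No difference carries a p-value, because nothing measures the spread between birds of 1 state.

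In photoperiodic birds, day length drives the yearly growth and regression of the gonads. A bird is called photosensitive while its gonads can still respond to lengthening days, and photorefractory once they regress despite them. A regressed testis holds relatively more supporting, interstitial, vascular and smooth-muscle tissue, and a grown one mostly germ cells. In bulk tissue, fewer cells of a type and less RNA per cell cannot be told apart. Transcripts had been assembled without being limited to annotated genes, so a locus without a gene match can be an unannotated gene, an end of a gene that the annotation lacks, or a piece of an intron. The positions below are those of the collared flycatcher assembly FicAlb_1.4, another songbird, on which the bunting reads were placed.

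The Sensitive library was the shallowest, with 120.5 Mb of aligned bases, against 200.8, 428.4 and 318.1 Mb in Early Stimulated, Late Stimulated and Refractory. A transcript without a gene match was listed from a coverage of about 2.5, which is 20.8 FPKM in Sensitive and 12.5, 5.84 and 7.86 FPKM in the other libraries in the same order. The threshold of 60 FPKM is 2.89 times the floor of Sensitive, and 4.82, 10.3 and 7.63 times the floors of the others. An unlisted locus without a gene match has no measured 0 and may lie under these floors. They do not hold for transcripts matched to a reference gene, some of which were listed at far lower values. The header of the file labelled Sensitive carries another abbreviation in its command line than the sample's title. Genes of photoreceptors and neurons, which are not typical of testis, separated the libraries. The list of 12 such markers was written with earlier results of these data known, so the split may partly reflect the choice of genes. Of these, 10 carried a name in some file: PDC, PDE6H, GNAT2, GNB3, RBP3, GUCA1A, GAD1, ELAVL4, STMN2 and TAGLN3. In Sensitive all 10 had exon coverage of 0. In each other library all 10 were covered, with sums from 1176 to 1512 FPKM. The tissue label of Early Stimulated, Late Stimulated and Refractory is therefore in doubt, and absence from these libraries may not be absence from testis in those states. Few markers of testis cells carried a name in any file, as given below, so they do not settle the label of Sensitive either. Whether the difference in photoreceptor and neuron markers has a part in the loci described here was not tested.

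The same rule was turned to each of the other libraries. Early Stimulated held 17 loci at 60 FPKM or more that no other library listed (0.458% of its loci at that level), Late Stimulated 81 (2.23%) and Refractory 21 (0.542%). The Sensitive set of 246 (6.84%) was the largest of the 4 at this threshold. At any level the order was another one: 975 loci were listed in Sensitive alone, 354 in Early Stimulated alone, 3176 in Late Stimulated alone and 1244 in Refractory alone. In the opposite direction, 1557 of the 21189 merged loci were at 60 FPKM or more in at least 1 other library and unlisted in Sensitive. Of these, 515 reached 60 FPKM in all 3 others. These counts cannot be set against the 246: they ask for absence from 1 library, the shallowest, and the 246 for absence from 3. The structure of the Sensitive set also differed from that of the other sets in exon number and length, under the same limits. Spliced loci with at least 2 exons made up 114 of the 246 loci of Sensitive (46.3%), against 1 of 17 in Early Stimulated (5.88%), 5 of 81 in Late Stimulated (6.17%) and 3 of 21 in Refractory (14.3%). In Sensitive the other loci at 60 FPKM or more were spliced more often than the 246, in 56.4% of cases. No such share for all abundant loci of the other libraries stands beside these values. Loci matched to a reference gene numbered 7 of 246 in the Sensitive set (2.85%) and 0 of 17, 81 and 21 in the other sets. At so low a share, sets of this size could hold 0 through their size alone, so this is not read as a difference. The median exonic length was 354.5 bases in the Sensitive set, and 238, 260 and 252 bases in the sets of Early Stimulated, Late Stimulated and Refractory. The rule set no condition on exon number, length or gene match, but it is not free of structure. A longer locus is more easily overlapped by a transcript of another library. Loci of 1 library are not replicates, so these shares are given without a test.

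**Figure D1:**
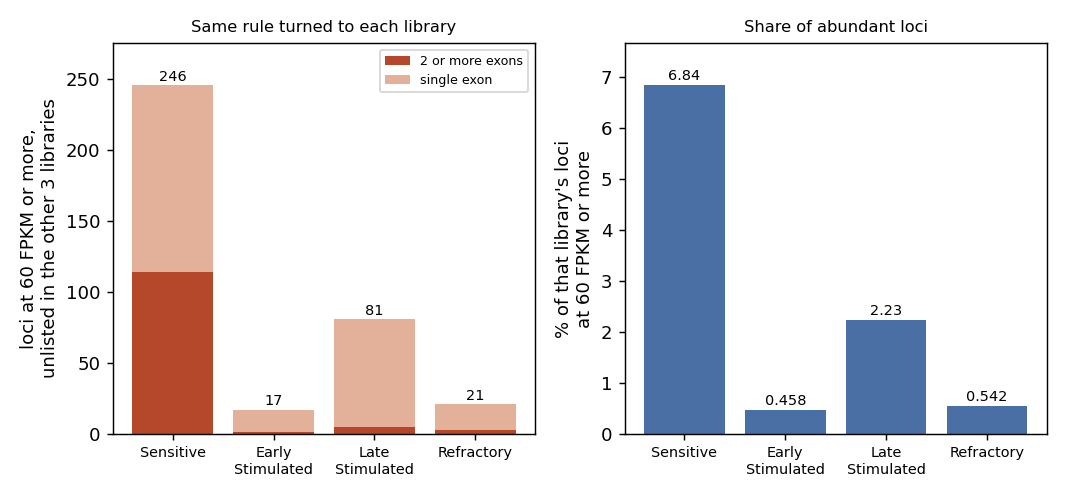
Left, number of loci at 60 FPKM or more in 1 library and unlisted in the other 3, for each library, split by exon number. Right, the same loci as a percent of all loci at 60 FPKM or more in that library; Sensitive stands at 6.84% and the others between 0.458% and 2.23%.

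Of the 3595 loci at 60 FPKM or more in Sensitive, 2967 were listed in all 3 other libraries, 227 in 2 of them and 155 in only 1. In 116 of those 155 the single other library was Late Stimulated, the deepest, in 27 it was Refractory and in 12 Early Stimulated. The share that no other library listed was 7.78% of the loci from 60 to 100 FPKM, 5.53% from 100 to 200, 7.58% from 200 to 400 and 7.23% from 400 to 800 FPKM. Above that it was 2.90%, which is 2 of 69 loci. Loci unlisted elsewhere were thus found at every level, not just near the threshold.

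Levels of the 246 loci in Sensitive ran from 60.1 to 1187 FPKM, with a median of 98.7 and quartiles of 74.2 and 171 FPKM. The 3349 other loci at 60 FPKM or more had a median of 109 FPKM. Together the 246 loci took 4.17% of the library's summed TPM, a share of all transcripts that corrects for their length. Behind each value lay between 1462 and 75098 aligned bases, with a median of 5207, at a mean coverage from 7.24 to 143. Without a stated read length these bases cannot be turned into reads. Just inside the threshold were loci at 61.6, 60.7, 60.7, 60.6 and 60.1 FPKM, and just outside it, likewise unlisted elsewhere, were loci at 59.7, 59.3, 58.9, 58.8 and 58.7 FPKM.

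**Figure D2:**
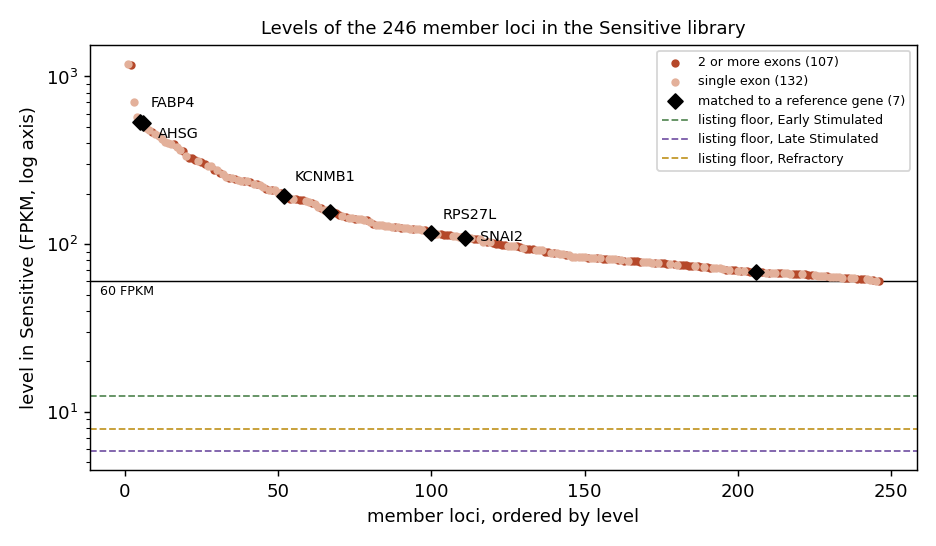
Level of each of the 246 loci in Sensitive (FPKM, log axis), ordered from highest to lowest, with the 7 gene-matched loci as diamonds and the listing floors of the other libraries as dashed lines. All points lie above 60 FPKM, and the floors lie between 5.84 and 12.5 FPKM.

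Among the 7 loci that carried a reference gene, the most abundant was FABP4 (ENSFALG00000008633; scaffold JH603220.1, 5106276 to 5110105, minus strand), a fatty-acid binding protein known in mammals from adipocytes, macrophages and endothelial cells. Its transcript of 4 exons and 1127 exonic bases stood at 538 FPKM in Sensitive and was listed in none of the other libraries. In the 5′ to 3′ direction its exons had a mean coverage of 1.54, 227, 189 and 50.7. The annotated first exon of 583 bases was thus almost bare, and it lowers the value given for the whole transcript. The nearest transcript of another library, on either strand, lay 46231 bases away.

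AHSG (ENSFALG00000008201; JH603178.1, 11024451 to 11031293, plus strand) encodes fetuin-A, a plasma protein secreted mainly by the liver that binds calcium phosphate. It stood at 526 FPKM in Sensitive and was unlisted elsewhere. All 7 of its exons were covered, at 61.3, 174, 73.0, 92.9, 15.9, 42.1 and 27.5 from 5′ to 3′, on 75098 aligned bases, the largest number behind any of the 246 loci. Another transcript of Sensitive began or ended 210 bases from it, and the nearest transcript of another library lay 69464 bases away.

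KCNMB1 (ENSFALG00000003392; JH603293.1, 2312791 to 2322203, plus strand) encodes the beta subunit of the large-conductance calcium-activated potassium channel that relaxes smooth muscle. It stood at 195 FPKM in Sensitive, with no transcript listed in the others. Exons 2 to 4 were evenly covered, at 29.9, 28.6 and 31.7, while the annotated first exon was at 0.022. A single-exon locus without a strand followed 328 bases downstream (JH603293.1, 2322531 to 2322747). It stood at 91.6 FPKM in Sensitive and is itself among the 246.

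SNAI2 (ENSFALG00000005762; JH603182.1, 878331 to 882568, plus strand) encodes a zinc-finger repressor known for driving epithelial cells and neural crest towards a mesenchymal state. It stood at 109 FPKM in Sensitive and had no listed transcript elsewhere, with exon coverage of 0.171, 10.4 and 22.4 from 5′ to 3′. RPS27L (ENSFALG00000009992; JH603210.1, 1697296 to 1699899, plus strand), a ribosomal-protein paralog, stood at 116 FPKM on 249 exonic bases and 3476 aligned bases, with exons at 3.17, 26.7 and 15.1. It resembles RPS27 closely, and no source used here tells how reads with several placements were counted, so its value is uncertain. The remaining matched loci had an Ensembl ID without a symbol. ENSFALG00000003185 (AGTO01012024.1, 448250 to 455434, minus strand) stood at 156 FPKM with exons at 8.30, 21.1, 1.88 and 22.2. ENSFALG00000007637 (JH603477.1, 155513 to 157920, minus strand) stood at 67.9 FPKM with exons at 0.383, 17.0, 10.8, 2.82 and 1.09. In 5 of the 7 genes (FABP4, KCNMB1, RPS27L, SNAI2 and ENSFALG00000007637) the annotated first exon had the lowest coverage of the gene.

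**Figure D3:**
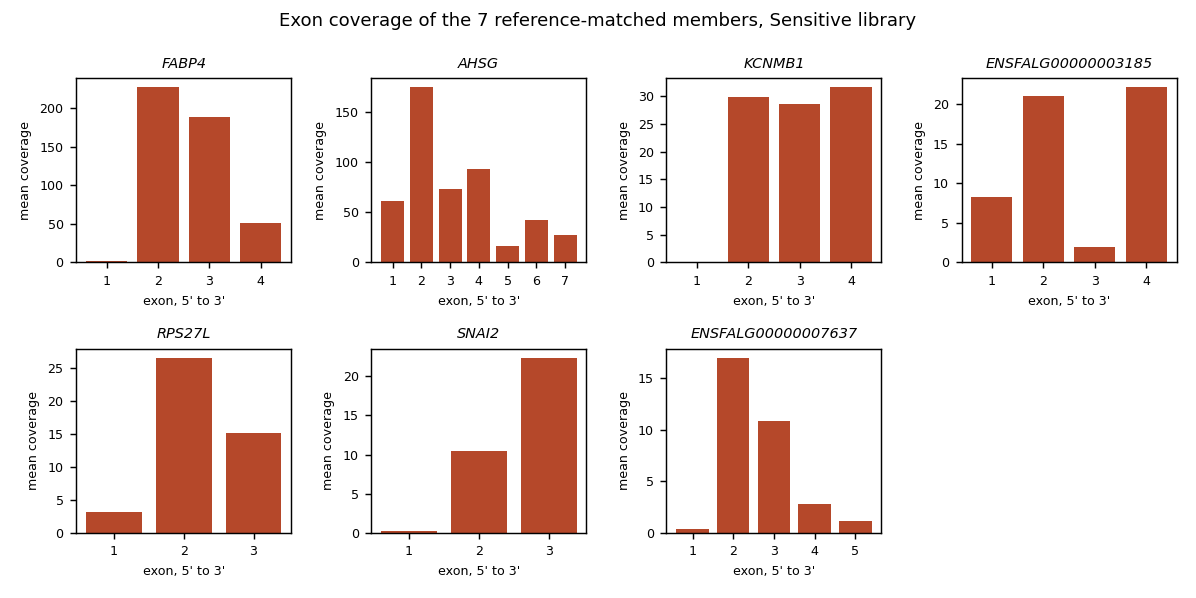
Mean coverage of each exon, from 5′ to 3′, in the 7 gene-matched loci of the Sensitive library. The first exons of FABP4, KCNMB1 and SNAI2 are nearly bare, at 1.54, 0.022 and 0.171, while all 7 exons of AHSG are covered.

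The other 239 loci matched no reference gene. The highest of all was a single exon of 237 bases without a strand (JH603186.1:1215436-1215672) at 1187 FPKM in Sensitive, the 40th highest of all loci in that library. It lay inside an intron of the Sensitive transcript of SRSF5, a splicing factor of the serine- and arginine-rich family. The exons of SRSF5 were covered at 334 FPKM in Sensitive and at 263, 287 and 339 FPKM in Early Stimulated, Late Stimulated and Refractory. The gene around this locus was thus at a like level in all 4 libraries, and the nearest listed transcript of another library ended or began 57 bases away.

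The next locus, JH603197.1:9609206-9610150 on the minus strand, had 3 exons, 380 exonic bases and 1165 FPKM. From 5′ to 3′ its exons were at 4.63, 73.1 and 220. It lay apart from other transcripts: the nearest of another library on its strand was 182744 bases away, and the nearest on either strand 5698 bases. JH603177.1:11357106-11357392, a single exon on the minus strand, stood at 708 FPKM. JH603193.1:10579501-10579926, also a single exon on the minus strand, stood at 573 FPKM. It was separated by 109 bases from a locus of 4 exons on the same strand at 185 FPKM (JH603193.1:10580035-10582471). Elsewhere on the same scaffold, JH603193.1:10366772-10367047 on the plus strand stood at 489 FPKM.

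After these came JH603293.1:2109677-2109883 at 480 FPKM and the 5-exon locus JH603204.1:2707060-2709911 at 465 FPKM, both parts of the groups described below. JH603220.1:800530-800885 stood at 454 FPKM, and 147 bases from it lay JH603220.1:800110-800383 at 379 FPKM. Both were single exons without a strand, and the nearest transcript of another library was 230632 bases from JH603220.1:800530-800885. JH603208.1:407418-407621 stood at 441 FPKM on 204 bases. JH603180.1:15598349-15598831 stood at 424 FPKM and lay 831 bases downstream of ENSFALG00000014895, whose exons were covered at 54.0 FPKM in Sensitive and at 0.149, 0.0714 and 0 FPKM in Early Stimulated, Late Stimulated and Refractory. Of these 12 highest loci, FABP4 and AHSG included, 8 had a single exon.

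In structure, 132 of the 246 loci had 1 exon, 33 had 2, 23 had 3, 19 had 4 and 39 had 5 or more. The 3349 loci that were as abundant in Sensitive but listed elsewhere too had 2 or more exons in 56.4% of cases, against 46.3% of the 246, and 5 or more in 31.7%, against 15.9%. The 246 were shorter, with a median exonic length of 354.5 bases against 662 bases. Among single-exon loci the medians were 290.5 and 423 bases, and among spliced loci 514.5 and 1073 bases. A length under 300 bases, close over the shortest transcript listed without a gene match (200 bases), was found in 103 of the 246 (41.9%) and in 16.6% of the other abundant loci. Several transcripts were listed for 3 of the 246 loci (1.22%) and for 25.7% of the others. That difference is partly built into the merging, since transcripts of the other libraries can join several Sensitive transcripts into 1 locus, and by the rule they cannot do so in the 246. Among loci with exactly 1 Sensitive transcript, 243 of the 246 and 2489 of the others, the share with 2 or more exons was 45.7% and 46.6%, so that difference was nearly gone. The share with 5 or more exons was 14.8% and 23.1%, the median length 351 and 507 bases, and the share under 300 bases 42.4% and 22.3%. A reference match was found for 2.85% of the 246 and for 7.41% of the others. All 96 loci without a strand were single exons. Of the remainder, 69 lay on the plus strand and 81 on the minus strand.

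**Figure D4:**
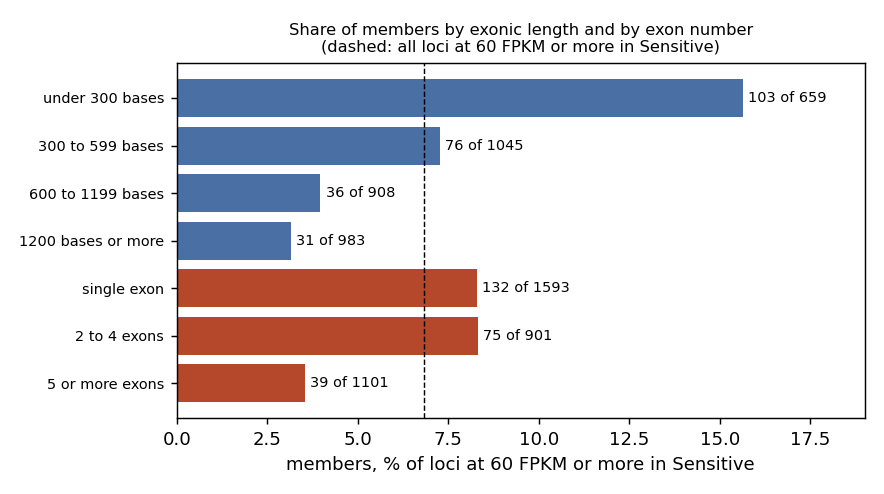
Loci unlisted elsewhere as a percent of all loci at 60 FPKM or more in Sensitive, by exonic length (blue) and by exon number (red), with counts at the bars. The share falls with length, from 15.6% under 300 bases to 3.15% at 1200 bases or more, around 6.84% for all loci together.

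Read the other way, 15.6% of the 659 abundant loci under 300 bases were unlisted elsewhere, 7.27% of the 1045 from 300 to under 600 bases, 3.96% of the 908 from 600 to under 1200 bases and 3.15% of the 983 at 1200 bases or more. The share was 8.29% among 1593 single-exon loci, 8.32% among 901 loci with 2 to 4 exons and 3.54% among 1101 loci with 5 or more. The rule itself depends on length, since a longer locus offers more bases on which a transcript of another library can overlap it.

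The loci with the most exons matched no reference gene. JH603286.1:191936-214246 had 13 exons in 1 of 2 transcripts on the minus strand, 3327 exonic bases and 93.5 FPKM in Sensitive. JH603198.1:9788273-9798129 had 12 exons in only 971 exonic bases and stood at 83.0 FPKM. JH603190.1:8640181-8664567 had 12 exons over a span of 24387 bases and stood at 62.3 FPKM. JH603371.1:792801-803427 had 11 exons at 113 FPKM, and JH603210.1:7890794-7898367 had 11 exons at 78.7 FPKM. Coverage varied among the exons of 1 locus: in the first of these 5 the exons of the 13-exon transcript ranged from 0.131 to 36.5, and in the last from 3.24 to 20.2. The exon at 0.131 lies inside the single exon of the other transcript of that locus, which had a coverage of 5.72. The value of 0.131 is thus not the whole coverage of that stretch. Over the 114 spliced loci the highest exon exceeded the lowest by a median of 5.25 times. In 19 of them all exons lay within a factor of 2, and in 31 (27.2%) the spread was over 10-fold. In the 1161 other abundant loci with a single spliced transcript the median spread was 7.23 times, and 38.2% exceeded 10-fold. The sets are not alike, since the 114 include loci with several transcripts, whose exons were pooled. Among loci with 1 Sensitive transcript, 5 or more exons were also more frequent in the others (23.1% against 14.8%). More exons leave more room for spread.

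With 10000 bases as the largest gap, 93 of the 246 loci fell into 41 groups, and 153 loci were alone. Of the groups, 31 were pairs, 9 held 3 loci and 1 held 4. No grouping of the other abundant loci stands beside these counts. Another transcript of Sensitive lay within 10000 bases of 73.6% of the 246 and of 68.9% of the other abundant loci. None of the 41 groups mixed both strands, but only 28 held a locus with a strand, and some of these held just 1 such locus. The median gap between neighbours was 949.5 bases, and 27 of 52 gaps were under 1000 bases. Levels within a group differed by a median factor of 1.73, and in 23 groups the members were within 2-fold of each other. The rule cut all levels at 60 FPKM, and the quartiles of the 246 were 74.2 and 171 FPKM, so loci far apart can also have close levels. No such factor between loci of different groups stands beside these values. At the gap of 10000 bases the 246 values come from 194 stretches, the groups and the lone loci. Pieces of 1 transcript cannot be told apart from neighbouring genes, so the number of separate transcripts is not known.

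The longest group was JH603190.1:8640181-8709315 on the plus strand. It held 3 loci of 12, 7 and 3 exons at 62.3, 114 and 249 FPKM in the 5′ to 3′ direction, and the nearest transcript of another library lay 46710 bases away. On the minus strand, JH603182.1:11941490-11961248 held 15 exons in 3 loci, at 66.0, 245 and 294 FPKM from 5′ to 3′. JH603358.1:465149-485633, also on the minus strand, held loci at 128, 228 and 299 FPKM from 5′ to 3′, with the nearest transcript of another library 95254 bases away. JH603293.1:2109677-2130580 had minus-strand loci at 98.7 and 126 FPKM and, at its 3′ end, the single exon of 480 FPKM named above. In these 4 groups the level increased step by step towards the 3′ end.

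Other groups did not show such an order. JH603204.1:2701985-2712580 on the plus strand held 10 exons in 3 loci, at 318, 465 and 146 FPKM from 5′ to 3′. JH603180.1:10281842-10300619 held loci at 65.7, 159 and 88.96 FPKM, and JH603177.1:8664531-8668917 at 77.2, 67.1 and 98.8 FPKM, both in the 5′ to 3′ direction of the plus strand. In JH603228.1:4282142-4286305 the minus-strand locus stood at 277 FPKM and its neighbours without a strand at 248 and 82.6 FPKM. In JH603241.1:3868581-3899675 a single exon at 125 FPKM lay inside an intron of a 7-exon locus at 78.9 FPKM, next to a locus at 72.6 FPKM. The group of 4, JH603192.1:8637720-8639552, had single exons without a strand at 366, 83.7, 67.0 and 82.4 FPKM within 1833 bases. Over the 28 groups with a strand, the locus at the 3′ end was the most abundant in 21, namely in 16 of 19 pairs and in 5 of 9 larger groups. This count was made after the groups had been seen, and no such count from the other abundant loci stands beside it.

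The loci were spread over 103 of the 403 scaffolds with a locus listed in Sensitive, with at most 10 on 1 scaffold (JH603177.1, 5.81% of its 172 loci in Sensitive). None lay on mitochondrial DNA. Most of the loci lay far from transcripts of the other libraries. On the same strand or without a strand, the nearest transcript of Early Stimulated, Late Stimulated or Refractory lay within 1000 bases of 38 loci (15.4%) and within 10000 bases of 91 (37.0%), and the median distance was 23351 bases over the 241 loci with such a transcript on their scaffold. Other transcripts of Sensitive itself were nearer: 105 loci (42.7%) had one within 1000 bases and 181 (73.6%) within 10000 bases, with a median of 1241.5 bases. The rule took only loci that no transcript of the other libraries overlapped by exons. Greater distances to those libraries are thus partly built into the choice, and the contrast is a description. The other abundant loci had another transcript of Sensitive within 1000 bases in 41.1% of cases and within 10000 bases in 68.9%.

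**Figure D5:**
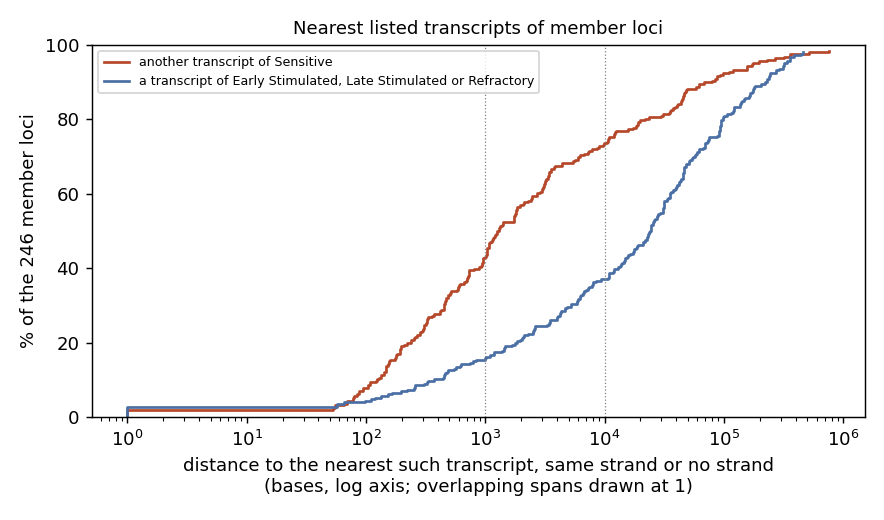
Cumulative percent of the 246 loci against the distance to the nearest other transcript of Sensitive (red) and of the other 3 libraries (blue), on the same strand or without a strand (log axis). At 1000 bases the curves stand at 42.7% and 15.4%, and at 10000 bases at 73.6% and 37.0%. The rule left out loci with exon overlap in the other 3 libraries, so the blue curve depends on the choice of loci.

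A smaller part of the loci touched genes that the other libraries listed. The span of 7 loci overlapped that of a transcript of another library on the same strand or without a strand, with no shared exon base. Of these, 6 lay inside introns. The pair JH603179.1:12031024-12031447 and JH603179.1:12031688-12031894, at 83.7 and 123 FPKM in Sensitive, lay in an intron of an unmatched transcript that stood at 573, 447 and 380 FPKM in Early Stimulated, Late Stimulated and Refractory. The pair JH603193.1:9926573-9926842 and JH603193.1:9927342-9927640, at 144 and 64.9 FPKM in Sensitive, lay in an intron of an unmatched transcript at 259, 301 and 252 FPKM in the same 3 libraries. JH603173.1:19186723-19187072, at 82.1 FPKM, lay in an intron of an 11-exon transcript of Sensitive at 78.3 FPKM, and of transcripts listed in each other library. JH603324.1:461532-461786, at 76.1 FPKM in Sensitive, lay in an intron of transcripts of 4 or 5 exons at 7.44 to 28.1 FPKM in the other libraries. Exons overlapped a transcript of another library on the opposite strand in 1 of the 246 loci.

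Reference genes were searched only where some library listed a transcript matched to them, so nearness to other annotated genes is not known. Within 5000 bases of such a gene lay 16 loci, beside 15 genes, on the same strand or without a strand. A locus' own match was left out. All 16 were single exons without a strand, 14 of them downstream of the gene, 1 upstream and the 1 in SRSF5. The genes did not share 1 pattern over the libraries. KCNMB1, CCDC3 (a secreted protein known from fat and endothelium in mammals) and ENSFALG00000007793 had exon coverage in Sensitive alone, at 195, 15.6 and 27.6 FPKM. The locus beside CCDC3, JH603242.1:3104991-3105284, lay 2452 bases downstream and stood at 314 FPKM. LRRTM3, a synaptic adhesion protein, was covered at 39.6 FPKM in Sensitive and at 0, 10.1 and 8.33 FPKM in Early Stimulated, Late Stimulated and Refractory.

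Of the other neighbours, ENSFALG00000014895, ENSFALG00000006889 and ENSFALG00000014863 were covered at 54.0, 14.3 and 9.82 FPKM in Sensitive and at 0 to 1.16 FPKM in the others. ENSFALG00000015010 was covered at 50.7 FPKM in Sensitive and at 249 to 348 FPKM in the others. Some further neighbours were also covered in all 4 libraries, or in all but Sensitive. AFG3L2, a mitochondrial protease subunit, stood at 48.2 FPKM in Sensitive and at 39.7, 47.5 and 54.6 FPKM in the others, and its downstream locus at 4343 bases (JH603182.1:12746416-12746629) at 140 FPKM in Sensitive. C14orf166, a component of the tRNA ligase complex in mammals, was covered at 48.6 FPKM in Sensitive and at 26.5, 22.2 and 56.3 FPKM in the others, with a locus of 127 FPKM in Sensitive 477 bases downstream. TMEM243 and SMYD2, a lysine methyltransferase, had no exon coverage from listed transcripts in Sensitive, against 29.7 to 35.7 FPKM and 6.71 to 12.7 FPKM in the others. This does not measure absence. The values of SMYD2 lie under 20.8 FPKM, the level from which Sensitive listed transcripts without a gene match. Loci of Sensitive nevertheless followed 135 bases downstream of TMEM243, at 66.7 FPKM, and 2159 bases downstream of SMYD2, at 60.7 FPKM. Nearness to a gene was therefore not the same as a shared pattern over the libraries.

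Marker lists for 11 tissues and cell types held 121 genes, of which 28 carried a name in some file and 4 are among the 246 loci. KCNMB1 is 1 of 2 named genes of the list of peritubular and smooth muscle cells. The other, the tropomyosin TPM4, had exon coverage of 79.2 FPKM in Sensitive and of 5.90, 0 and 4.68 FPKM in Early Stimulated, Late Stimulated and Refractory. AHSG is 1 of 2 named genes of the liver list, beside the collectin COLEC10 at 54.2 FPKM in Sensitive and 0 elsewhere, which the threshold of 60 FPKM left out. FABP4 is the only named gene of the list of fat and endothelial cells. SNAI2 is 1 of 8 named regulators of trunk and gonadal mesoderm. All 8 were covered in Sensitive, with a sum of 592 FPKM, and 2 of them (the transcription factors NR2F2 and LHX9) in each other library, with sums from 57.2 to 63.8 FPKM. The lists were written with earlier results of these data known, and a share of 4 among 28 carries no test. Over all genes, 7 of the 255 reference-matched loci at 60 FPKM or more in Sensitive are among the 246 (2.75%). At any level Sensitive listed 1135 reference-matched loci. The 28 were counted over all libraries and at any level, so these shares have different bases.

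Markers that define the testis were nearly without a name in these files. Naming was similarly sparse for smooth muscle (2 of 11 genes), liver (2 of 10) and fat and endothelium (1 of 9). Of the mesoderm regulators, 8 of 12 were named. Of 13 Sertoli cell genes 1 was named (INHA, the inhibin alpha subunit, at 3.81 FPKM in Sensitive and 0 elsewhere). Of 9 Leydig cell genes 1 was named (TSPO, a cholesterol-binding mitochondrial protein, at 28.3 FPKM in Sensitive and 0, 1.90 and 2.22 FPKM in the others). Of 16 germ cell genes 2 were named, with summed exon coverage of 5.27 FPKM in Sensitive and 2.63, 4.69 and 5.74 FPKM in the others. None of the 4 genes is among the 246 loci. No blood cell marker was named in any file. The connective tissue list had 1 named gene (TCF21, also among the mesoderm regulators, at 9.65 FPKM in Sensitive and 0 elsewhere). The kidney and adrenal list had 1 (the calcium buffer CALB1, at 0 in Sensitive and at 105, 80.2 and 59.8 FPKM in the others). Neither is among the 246. Most transcripts had no reference match (88.98% in Sensitive), so a gene without a named transcript may still be among the unmatched ones. Whether unmatched loci among the 246 belong to testis genes was not tested.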

How the data were processed

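RNA labelled as testis was measured in 4 libraries, 1 per state, grouped by the state given in the labels. Of the steps before assembly, the submitters' processing notes name Trimmomatic alone; the aligner was not given in the sources used here. Per the file headers, StringTie 1.3.3b built the transcripts of each library, taking the FicAlb_1.4 annotation of Ensembl 89 as a guide. For each transcript the authors deposited mean coverage, FPKM and TPM, and for each exon its coverage. They are not counts, so no count-based interval is possible, and nothing scales the libraries to each other.

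Loci were merged in Python 3.11.15 with numpy 2.4.6. Aligned bases came from the constant ratio of coverage to FPKM. Aligned bases behind a locus are coverage times exonic length. Exon coverage of a gene sums all listed transcripts over its exons, in FPKM units. Coordinates count from 1. The code was tested on altered data: of 200 loci whose transcripts were removed from the other libraries, 200 were recovered. Such loci meet the rule by construction, so this checks the code alone. No sequence is shown, since no genome was used here.

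Loci named in the text were the gene-matched ones, the 12 highest, the 5 with most exons, the 5 on each side of the threshold, groups within 10000 bases (pairs mostly as counts) and list members. Loci inside introns or near genes were named after their values were seen. The loci, lists and rules were chosen with earlier results of these data known. Alternatives concerned the threshold, the unit, merging, the meaning of absence and low coverage. No test was run, since each state has 1 library. A marker gene of the lists is not reported here, and the sums and counts leave it out.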

Additional observations from a re-analysis of the deposited data

How the results depend on the processing

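No paired analysis was possible because each state has 1 library. The number of loci, 246, moved with the threshold, to 392 at 40 FPKM and 121 at 100 FPKM, and to 155 with transcripts without a strand left out, an alternative chosen after seeing the data, which removes the 96 loci of that kind. Under the other 7 alternatives it lay between 212 and 340. Gene-matched loci, 7, became 12 at 40 FPKM and 12 where under 10% of the Sensitive level was allowed elsewhere. Spliced loci, 114, became 187 at 40 FPKM and 53 at 100 FPKM. The median level, 98.7 FPKM, was 70.4 at 40 FPKM, 175 at 100 FPKM, 99.4 with TPM in place of FPKM, 98.8 with overlap on either strand, 99.4 with overlap of whole spans, 99.4 with no listed transcript within 1000 bases elsewhere, 125 where under 10% was allowed and 108 without strandless transcripts. The share of the library's TPM, 4.17%, was 4.96%, 3.11%, 4.30%, 4.16%, 3.93%, 3.59%, 13.4% and 2.73% under these alternatives in the same order, and 4.15% with the highest transcript in place of the sum. Leaving out transcripts under 2.5 coverage changed none of these 5 values. Of the 17 loci that are gene-matched or among the 12 highest, the locus in SRSF5 was lost with overlap of whole spans. That locus and the one downstream of ENSFALG00000014895 were lost with no transcript allowed within 1000 bases, the 4 without a strand when strandless transcripts were left out, and ENSFALG00000007637 at 100 FPKM. Depth limits the absence of loci without a gene match: under 12.5, 5.84 or 7.86 FPKM in Early Stimulated, Late Stimulated or Refractory they would not be listed. Gene-matched transcripts have no such floor, but a gene matched in Sensitive can be listed elsewhere through unmatched transcripts alone. The exons of SRSF5 had 263, 287 and 339 FPKM in these libraries, in the same order, with no transcript matched to it. Depth can therefore also limit the absence of the gene-matched loci.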
